A study of Mus musculus with 15 samples.

Results

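The genes described here encode peptide hormones and a granule protein of the enteroendocrine cells, the scattered secretory cells of the gut lining. They were taken by symbol as 10 genes (Cck, Gcg, Gip, Sct, Pyy, Nts, Sst, Tac1, Chga and Ghrl) of the 26844 in the table, whatever their values. RNA was sequenced from the distal jejunum of C57BL/6 male mice of 13 to 15 weeks. Ezetimibe-fed knockouts (4 libraries) lacked Aster-B and Aster-C (genes Gramd1b and Gramd1c) in the whole body and ate a diet of 0.08% cholesterol with 0.01% ezetimibe, a drug that inhibits the cholesterol transporter NPC1L1. Control-diet knockouts (3 libraries) ate the same 0.08% cholesterol diet without the drug. Ezetimibe-fed wild types (4 libraries) and control-diet wild types (4 libraries) received those same diets, and all 4 groups therefore shared the low cholesterol level. The series asks how Aster proteins and NPC1L1 act together in cholesterol uptake, and the comparisons here ask whether hormone transcripts differed with genotype, with ezetimibe, or with both. The knockout is global, so a difference in gut tissue need not begin in the gut, and the deleted exons are not stated in the labels.

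Enteroendocrine cells sense nutrients in the lumen and release peptides that act on the gut, pancreas, gallbladder and brain. Each peptide is cut from a precursor and stored in dense granules, and one cell can make several hormones. The repertoire shifts along the gut, with some hormones commoner near the stomach and others toward the ileum and colon. Because the libraries are of whole tissue, fewer cells of a type and less RNA per cell cannot be told apart.

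The libraries held 13855034 to 19307079 reads each. Gramd1c averaged 123 ± 37.0 in ezetimibe-fed knockouts and 143 ± 44.4 in control-diet knockouts, against 1211 ± 138 in ezetimibe-fed wild types and 1383 ± 332 in control-diet wild types (normalised counts, SD). Gramd1b averaged 1837 ± 167 in ezetimibe-fed knockouts and 1146 ± 160 in control-diet knockouts, against 3241 ± 385 in ezetimibe-fed wild types and 3178 ± 868 in control-diet wild types. Both targets were lower in the knockout libraries, as the labels give it. The general enteroendocrine markers Chgb, Neurod1, Scg2 and Pcsk1 were detected in every library. Defining markers of enteric neurons, which also make Tac1 and Sst, were near 0, with Elavl4 between 0 and 2.72 and Prph between 1.08 and 15.1 over all libraries. The neuron list summed to 109 to 215 in ezetimibe-fed knockouts, 141 to 267 in control-diet knockouts, 134 to 149.99 in ezetimibe-fed wild types and 93.8 to 127 in control-diet wild types. The islet markers were not analysed here.

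Per kilobase of exon, the glucose-dependent insulinotropic peptide gene Gip was highest at 1128 ± 145 normalised counts (mean ± SD over the 15 libraries). Sct, which encodes the bicarbonate-releasing hormone secretin, averaged 815 ± 107, and Nts, which encodes neurotensin, averaged 714 ± 93.2. These 3 genes kept ranks 1, 2 and 3 in all 15 libraries. Sst, the gene of the inhibitory peptide somatostatin, averaged 377 ± 75.0 per kilobase. Chga, the granule protein chromogranin A, averaged 267 ± 47.5 per kilobase, and Pyy, the satiety peptide YY gene of distal cells, averaged 230 ± 42.3. Sst stood above Chga in 13 libraries, Chga above Pyy in 13 and Pyy above Gcg in 14. Gcg, the proglucagon gene whose intestinal products include GLP-1, averaged 142 ± 49.6 per kilobase. Cck, the gene of cholecystokinin, which contracts the gallbladder, averaged 141 ± 19.6 per kilobase. Gcg exceeded Cck in only 7 of 15 libraries, so their order is not separated. Ghrl, which encodes the appetite hormone ghrelin made mostly in the stomach, averaged 17.0 ± 4.71 per kilobase. Tac1, the gene of substance P and neurokinin A, averaged 14.0 ± 5.85 per kilobase, and Ghrl stood above it in 11 libraries. These last genes were the shallowest, with Ghrl down to 10 reads and Tac1 down to 14 reads in a library, so their estimates carry the largest counting error of the 10.

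**Figure D1:**
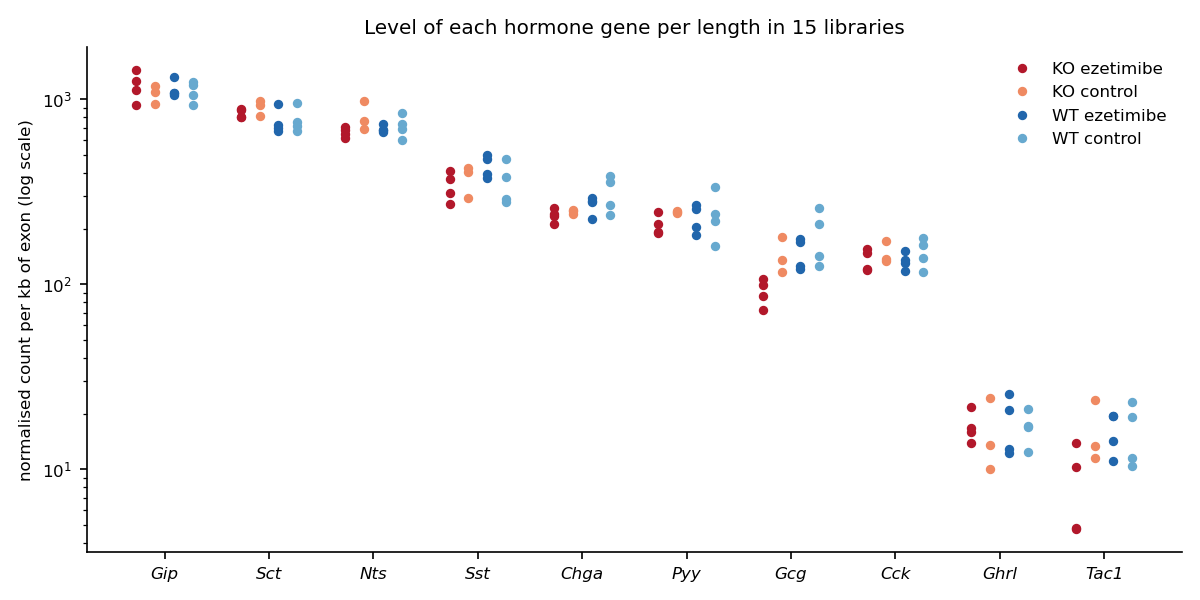
Normalised count per kilobase of exon (log scale) for each hormone gene, one point per library, coloured by group with ezetimibe-fed knockouts first. Gip, Sct and Nts lie above all other genes in every library, and Ghrl and Tac1 lie lowest, at 25.4 or below.

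Promoter sequences of 3 genes are shown because Sct and Nts varied together and Gcg had the smallest p of the 10 on the ezetimibe diet; they are the bases before the gene start, taken from RefSeq on GRCm38.p6, each 5′ to 3′ on the minus strand, and capitals mark TATAAA on either strand. Sct lies at chr7:141279134-141279383, Nts at chr10:102490487-102490668 and Gcg at chr2:62483654-62483903.
Sct: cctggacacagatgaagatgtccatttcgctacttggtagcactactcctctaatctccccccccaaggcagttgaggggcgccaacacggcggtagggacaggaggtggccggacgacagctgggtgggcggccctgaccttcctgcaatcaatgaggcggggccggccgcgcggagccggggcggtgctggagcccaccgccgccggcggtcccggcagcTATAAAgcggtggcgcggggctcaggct
Nts: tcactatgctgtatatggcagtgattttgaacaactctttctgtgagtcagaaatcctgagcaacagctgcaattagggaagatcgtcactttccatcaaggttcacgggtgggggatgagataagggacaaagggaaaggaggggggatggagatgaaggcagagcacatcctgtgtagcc
Gcg: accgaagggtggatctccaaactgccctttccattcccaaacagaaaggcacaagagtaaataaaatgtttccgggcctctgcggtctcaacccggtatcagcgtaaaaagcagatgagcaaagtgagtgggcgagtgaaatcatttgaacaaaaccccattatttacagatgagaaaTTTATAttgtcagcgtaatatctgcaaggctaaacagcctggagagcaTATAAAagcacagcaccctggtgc
The letters TATAAA, read on either strand, occur in 2 of the 10 genes' windows (Sct and Gcg), against 14.3% of 27025 genes with a 250-base window. The cAMP response element letters TGACGTCA, the same on both strands, occur in the Sst window alone, starting 48 bases before the RefSeq start, against 1.77% of genes. For Nts, 68 bases next to the RefSeq start lie inside the gene as GENCODE M21 draws it and are not shown. For Sst, 114 such bases lie inside the gene, and the TGACGTCA match is among them. A match of letters is a description and not a binding site.

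**Figure D2:**
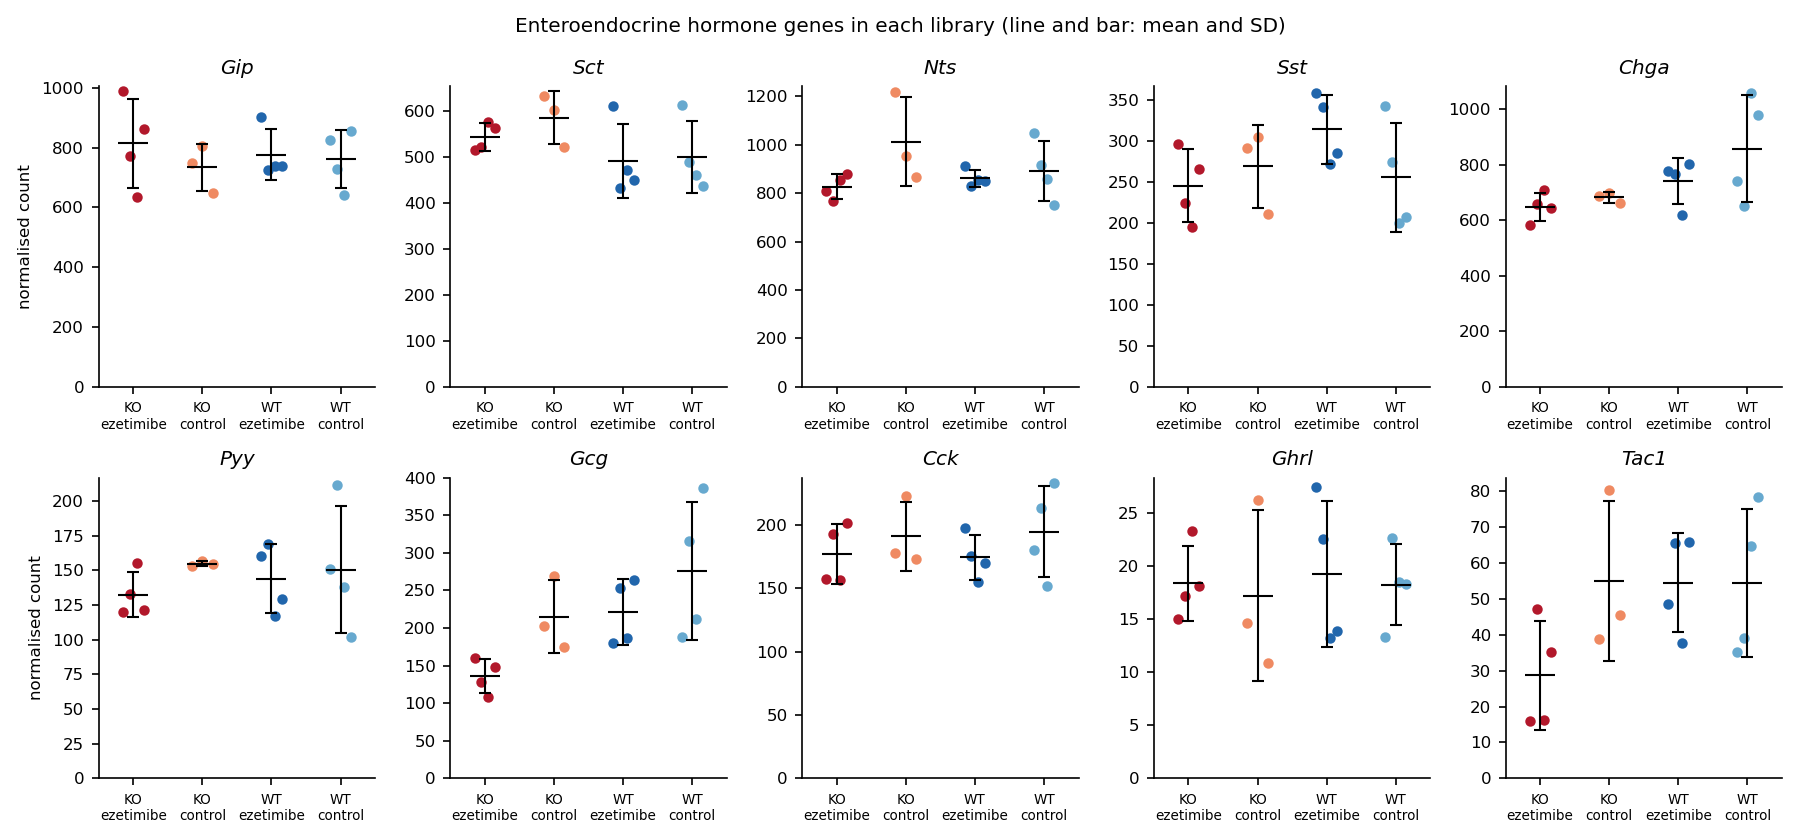
Normalised counts of each gene in every library, one panel per gene, groups in the order ezetimibe-fed knockout, control-diet knockout, ezetimibe-fed wild type, control-diet wild type, with the mean (line) and SD (bar). The 4 ezetimibe-fed knockout points of Gcg sit at 109 to 159.6, below every point of the other groups.

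In the main limma fit, which had no replicate block, none of the 10 genes passed an adjusted p of 0.05 in any of the 7 comparisons. In knockouts against wild types on the ezetimibe diet 0 of 10 were called, against 0.00699% of the 14299 genes tested, and on the control diet 0 of 10 against 0.371%. For ezetimibe against control diet, 0 of 10 were called in knockouts against 0.727%, and 0 of 10 in wild types against 0.217%. The interaction called 0 of 10 against 0% of all genes, the genotype effect averaged over diets 0 of 10 against 4.04%, and the diet effect averaged over genotypes 0 of 10 against 2.48%. At an unadjusted p under 0.05, 2 of the 10 differed between genotypes on the ezetimibe diet (16.4% of all genes) and 0 on the control diet (14.7%). Ezetimibe in knockouts gave 3 (22.9%), ezetimibe in wild types 0 (5.08%), the interaction 0 (7.02%), the averaged genotype effect 3 (22.2%) and the averaged diet effect 1 (20.2%). edgeR and limma-voom on the recovered reads also called 0 of 10 in every comparison. For genotype on the control diet edgeR called 12 and limma-voom 10 of all genes tested. For ezetimibe in knockouts limma-voom called 41 of all genes. With so few calls among all genes, 0 of 10 there does not set the hormone genes apart. The all-gene calls of these tools in the other comparisons are not given here. DESeq2 called 1, Gcg, in the averaged genotype effect, against 8.53% of all genes. It called 0 of 10 in knockouts against wild types on the ezetimibe diet (0.601% of all genes) and on the control diet (3.09%), and 0 of 10 for ezetimibe in knockouts (8.08%) and in wild types (0.657%). It also called 0 of 10 for the interaction (0.035%) and for the averaged diet effect (6.65%). With the replicate number as a block, limma called 2 of 10 for ezetimibe in knockouts, Gcg and Tac1, where 1915 of the 14299 genes were called. That fit called 1, Gcg, for the averaged genotype effect (922 of all genes) and for the averaged diet effect (1489), and 0 of 10 in the other comparisons. The median log2 fold change of the 10 genes was -0.09 for knockouts against wild types on the ezetimibe diet, beside 0.00 for all genes, and -0.12 for ezetimibe in knockouts, beside 0.01. The authors' deposited tables, of 424 and 72 listed genes for knockouts against wild types on the control and ezetimibe diets, list 0 of the 10.

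Gcg (chr2:62474530-62483650, minus strand) had 159.6, 129, 109 and 148 normalised counts in ezetimibe-fed knockouts and 202, 269 and 174 in control-diet knockouts. It had 181, 254, 187 and 264 in ezetimibe-fed wild types and 188, 316, 212 and 386 in control-diet wild types. All 4 ezetimibe-fed knockouts lay below all ezetimibe-fed wild types and below all control-diet knockouts. The groups overlapped for genotype on the control diet and for ezetimibe in wild types. Gcg was the 1 gene of the 10 lower without overlap in each of those comparisons, against 4.84% of all genes in the first and 9.38% in the second, and they share the ezetimibe-fed knockouts. For genotype on the control diet 0 of 10 were lower without overlap (5.57% of all genes), and for ezetimibe in wild types 0 of 10 (1.21%). Its log2 fold change was -0.69 on the ezetimibe diet (SE 0.220, 95% interval -1.16 to -0.22, limma adjusted p = 0.225) and -0.32 on the control diet (interval -0.83 to 0.19, adjusted p = 0.578). Ezetimibe against control diet gave -0.65 in knockouts (interval -1.15 to -0.14, adjusted p = 0.128) and -0.28 in wild types (interval -0.75 to 0.19, adjusted p = 0.999). The interaction was -0.37 (interval -1.06 to 0.32, limma adjusted p = 0.765), so a different response in the genotypes was not shown. With 1 library left out it ran between -0.55 (without control-diet wild type replicate 4) and -0.20 (without control-diet knockout replicate 2), and it was also over 1.5 times smaller without control-diet wild type replicate 1. Averaged over diets, knockouts were at -0.50 against wild types (SE 0.162, limma adjusted p = 0.0859), and averaged over genotypes ezetimibe was at -0.46 (limma adjusted p = 0.129). The averaged genotype value crossed the threshold with the replicate number as a limma block (-0.45, adjusted p = 0.0389). In that fit ezetimibe also crossed it in knockouts (-0.75, adjusted p = 0.0162) and averaged over genotypes (-0.51, adjusted p = 0.0174). The averaged genotype value also crossed it with DESeq2 (-0.53, adjusted p = 0.0310) and with limma without control-diet wild type replicate 1 (-0.59, adjusted p = 0.0347), where the calls among all genes numbered 1202. That library also had the highest sum of 6 exocrine pancreas markers, 282 against 0 to 27.5 in the other libraries, and the highest Sct, Nts and Sst of its group. Ezetimibe-fed wild type replicate 1 was likewise the highest of its group for Sct, Nts and Sst, with a pancreas sum of 3.17. The part of pancreas RNA in these values was not tested. Without control-diet wild type replicate 4, the library highest for Gcg, the log2 fold change was -0.14 for genotype on the control diet and -0.10 for ezetimibe in wild types.

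Markers of other cell types differed alongside Gcg. In 3 groups the libraries with the highest Gcg also had the highest sums of the 6 Paneth cell and 10 proliferation markers: control-diet knockout 2, ezetimibe-fed wild types 2 and 4, and control-diet wild types 2 and 4. The Paneth sums were 5886 to 9242 in ezetimibe-fed knockouts, 6659 to 10911 in control-diet knockouts, 6225 to 24518 in ezetimibe-fed wild types and 13513 to 43770 in control-diet wild types. The proliferation sums were 1777 to 2283 in ezetimibe-fed knockouts, 1710.0 to 2587 in control-diet knockouts, 2330.0 to 3372 in ezetimibe-fed wild types and 2348 to 4647 in control-diet wild types. For the averaged genotype effect limma called 3 of 6 Paneth genes and 8 of 10 proliferation genes lower in knockouts, and 7 of 10 T and NK cell genes, against 4.04% of all genes called in either direction. The myeloid sums were 215 to 482 in ezetimibe-fed knockouts, 719 to 979 in control-diet knockouts, 491 to 806 in ezetimibe-fed wild types and 481 to 1314 in control-diet wild types. Like Gcg, they were lower in all ezetimibe-fed knockouts than in all ezetimibe-fed wild types and all control-diet knockouts. On the ezetimibe diet the enterocyte sums were 974963 or more in knockouts against 920932 or less in wild types, and the goblet sums were 164004 to 223651 in knockouts against 133497 to 150246 in wild types. The ezetimibe-fed knockouts were also the lowest libraries on the first principal component of the tested genes, which held 27.65% of the variance. They lay at -58.6 to -17.0, and all other libraries at -16.4 or above. Within each control-diet group the libraries ranked alike by Gcg and by this component, but not within the ezetimibe-fed groups. The part of these cell types and of this component in the Gcg values was not tested. The 3 tested genes whose group-centred levels followed Gcg most closely over the 15 libraries were Snrpd3 (Pearson's r 0.967), Cdkn2aipnl (0.960) and Ssbp1 (0.958). A high r follows from picking the top of all tested genes. The top gene of each other hormone gene had r of 0.877 to 0.93.

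Tac1 (chr6:7554879-7565834, plus strand) had 16.1, 47.2, 16.3 and 35.2 normalised counts in ezetimibe-fed knockouts and 39.0, 80.5 and 45.5 in control-diet knockouts. It had 48.6, 65.7, 37.7 and 65.9 in ezetimibe-fed wild types and 35.3, 39.1, 64.9 and 78.5 in control-diet wild types. The ezetimibe-fed knockouts included the 2 lowest libraries of the series, and every pair of groups overlapped. Its log2 fold change on the ezetimibe diet was -1.01 (SE 0.365, 95% interval -1.79 to -0.24, limma adjusted p = 0.244), against 0.02 on the control diet (interval -0.82 to 0.86). Ezetimibe in knockouts gave -0.99 (interval -1.83 to -0.15, limma adjusted p = 0.153). With the replicate number as a limma block that value of Tac1 was -1.14 (adjusted p = 0.0311). Its interaction was -1.03 (interval -2.18 to 0.11, limma adjusted p = 0.682). Its spread within groups, an SD of 0.575 on the log2 scale, exceeded that of 87.3% of tested genes. The 3 tested genes of the enteric neuron list had median log2 fold changes of 0.08 for genotype on the ezetimibe diet and 0.56 on the control diet. Their median was -0.47 for ezetimibe in knockouts and -0.82 for the interaction. In the interaction 2 of the 3 were lower at an unadjusted limma p under 0.05 (7.02% of all genes in either direction). The part of neurons in the Tac1 values was not tested.

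**Figure D3:**
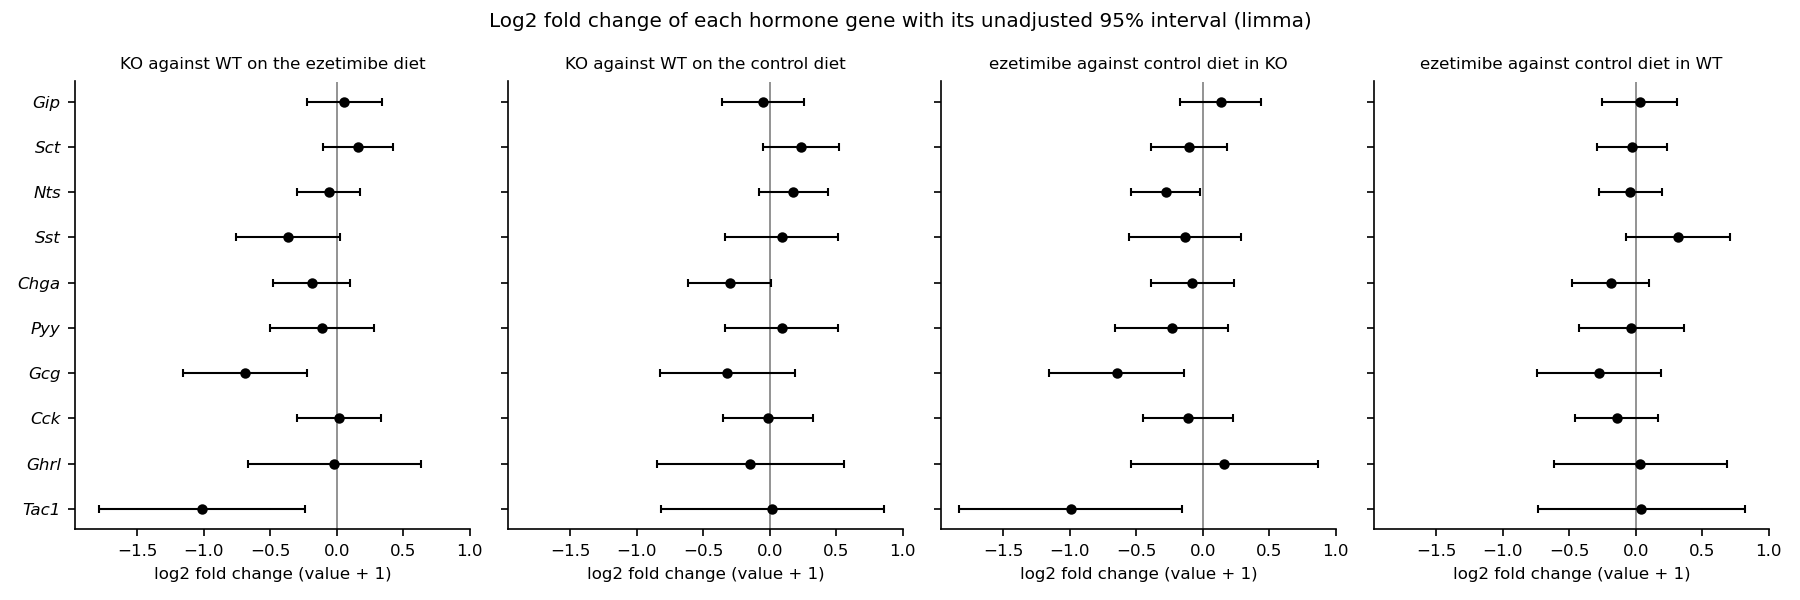
Log2 fold change (value + 1) with unadjusted 95% interval from limma for each gene: knockout against wild type on each diet, then ezetimibe against control diet in each genotype. Gcg and Tac1 have intervals below 0 on the ezetimibe diet and in knockouts, Nts has one just below 0 in knockouts, and no other interval in these panels excludes 0.

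Chga and Sct had averaged genotype values of opposite sign, neither past the threshold. Chga (chr12:102554969-102565028, plus strand) had 585, 657, 709 and 643 normalised counts in ezetimibe-fed knockouts and 689, 698 and 662 in control-diet knockouts. It had 776, 768, 618 and 802 in ezetimibe-fed wild types and 740.0, 651, 1060.1 and 978 in control-diet wild types, and the groups overlapped on both diets. Averaged over diets its log2 fold change was -0.24 (interval -0.46 to -0.03, limma adjusted p = 0.164). Sct (chr7:141278330-141279133, minus strand) had 515, 520.0, 574 and 562 in ezetimibe-fed knockouts and 631, 602 and 521 in control-diet knockouts. It had 609, 433, 471 and 449 in ezetimibe-fed wild types and 613, 488, 461 and 436 in control-diet wild types, where replicate 1 was the highest on each diet. Averaged over diets its log2 fold change was 0.20 (interval 0.00 to 0.39, limma adjusted p = 0.216).

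Nts (chr10:102481756-102490486, minus strand) had 809, 768, 853 and 881 normalised counts in ezetimibe-fed knockouts and 1219.8, 956 and 865 in control-diet knockouts. It had 913, 831, 854 and 852 in ezetimibe-fed wild types and 1048, 916, 858 and 751 in control-diet wild types. Replicate 1 was the highest library of the control-diet knockouts and of both wild-type groups, and the groups overlapped. Ezetimibe in knockouts gave a log2 fold change of -0.28 (interval -0.54 to -0.02, limma adjusted p = 0.186), against -0.04 in wild types (interval -0.28 to 0.20). Without control-diet knockout replicate 1, its highest library, the value in knockouts was -0.14. Its spread within groups was the smallest of the 10 genes, an SD of 0.160 on the log2 scale.

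Gip, Cck, Pyy, Sst and Ghrl had no unadjusted p under 0.05 in any of the 7 comparisons. Gip averaged 815 ± 148 normalised counts in ezetimibe-fed knockouts and 734 ± 78.6 in control-diet knockouts, against 777 ± 84.4 in ezetimibe-fed wild types and 763 ± 96.7 in control-diet wild types. Its genotype intervals ran from -0.23 to 0.34 on the ezetimibe diet and from -0.36 to 0.25 on the control diet. Cck ranged over 156 to 201 in ezetimibe-fed knockouts, 173 to 223 in control-diet knockouts, 155 to 197 in ezetimibe-fed wild types and 151 to 233 in control-diet wild types. Its averaged genotype log2 fold change was 0.00 with an interval of -0.23 to 0.23. Pyy ranged over 119.9 to 155 in ezetimibe-fed knockouts, 153 to 157 in control-diet knockouts, 117 to 169 in ezetimibe-fed wild types and 102 to 212 in control-diet wild types. Its averaged genotype value was -0.01 with an interval of -0.30 to 0.28. The somatostatin transcript ranged over 195 to 297 in ezetimibe-fed knockouts, 211 to 305 in control-diet knockouts, 272 to 359 in ezetimibe-fed wild types and 199.9 to 343 in control-diet wild types. Its log2 fold change on the ezetimibe diet was -0.36 (interval -0.75 to 0.03). Ghrl ranged over 15.0 to 23.4 in ezetimibe-fed knockouts, 10.8 to 26.2 in control-diet knockouts, 13.2 to 27.5 in ezetimibe-fed wild types and 13.4 to 22.7 in control-diet wild types. Its averaged genotype interval was the widest of these 5, -0.56 to 0.40. Ghrl (chr6:113716119-113719880) overlaps 2 opposite-strand genes. Gm26982 (113714971 to 113716121) only touches its edge, and Gm44033 (113718584 to 113719278) lies inside it. Since use of strand in counting is not stated, Ghrl reads in the shared bases cannot be told from theirs. The 10 genes together summed to 3573 ± 152 in ezetimibe-fed knockouts and 3918 ± 391 in control-diet knockouts, against 3799 ± 292 in ezetimibe-fed wild types and 3962 ± 155 in control-diet wild types.

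Among libraries of one group, Sct and Nts varied together. Over the 15 libraries, with group means subtracted, Pearson's r was 0.769 (permutation p = 0.00017, adjusted p = 0.00765 over 45 pairs) and Spearman's rho was 0.811 (permutation p = 0.001, adjusted p = 0.045). Without the 2 libraries farthest from the median Sct level, r was 0.795. Replicate 1 was the highest library for both genes in the control-diet knockouts and in both wild-type groups. The permutations treated libraries of a group as exchangeable, and the part of the replicate number in this r was not tested. The Spearman call was lost with TMM scaling (lowest permutation adjusted p of any pair 0.187, against 0.0144 for Pearson's r), and both were lost without subtracting group means (lowest permutation adjusted p 0.0769 for Pearson's r and 0.119 for Spearman's rho). This was the only pair of 45 with an adjusted p under 0.05, the next being Gip with Sst (r 0.691, permutation adjusted p = 0.338, r 0.616 without 2 libraries). Across all pairs 30 correlations were positive, with a median r of 0.13. Gcg had its largest r with Cck, 0.601 (permutation adjusted p = 0.369, r 0.428 without 2 libraries). Its lowest was with Sct, -0.511 (permutation adjusted p = 0.442, r -0.235 without 2 libraries).

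**Figure D4:**
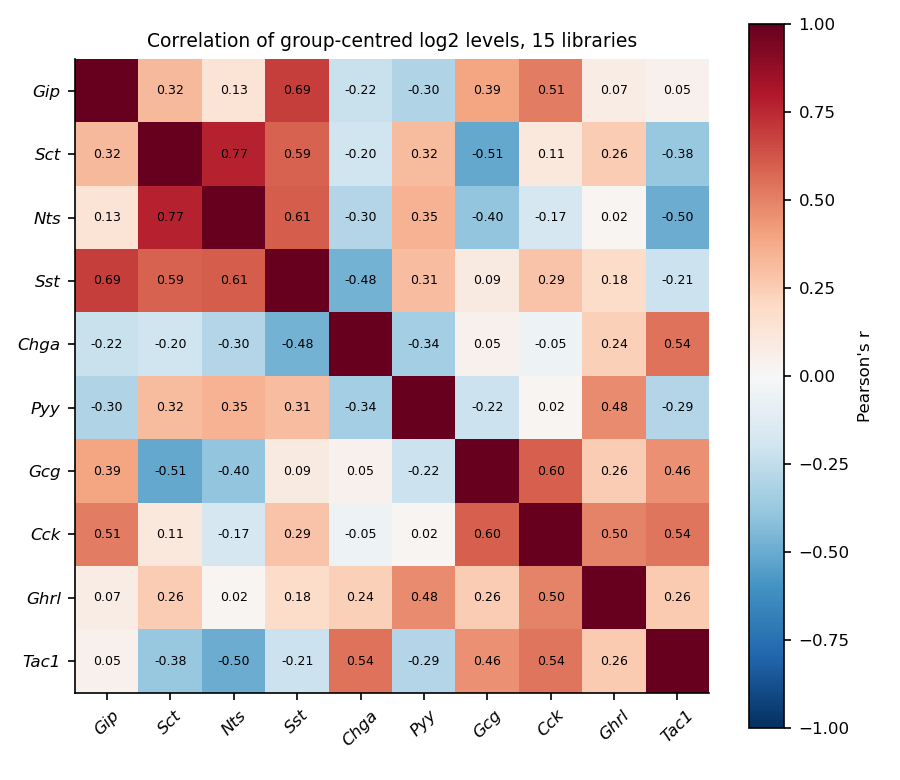
Pearson's r of group-centred log2 levels between the 10 genes over 15 libraries, each cell one pair. The Sct and Nts cell, at 0.77, is the highest.

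The 6 further lists (88 genes, 52 tested) hold genes linked to enteroendocrine hormones, and not all are particular to enteroendocrine cells. They held no gene called in the main limma fit in any comparison. At an unadjusted p under 0.05 they held 7 on the ezetimibe diet (against 16.4% of all genes tested) and 0 on the control diet (against 14.7%). They held 7 for ezetimibe in knockouts (against 22.9%) and 2 for ezetimibe in wild types (against 5.08%). Of 10 tested transcription factors, Lmx1a had the largest genotype value on the ezetimibe diet, -0.88 (SE 0.279, limma adjusted p = 0.225), and Pax6 had -0.59 (limma adjusted p = 0.286). Both were low, Lmx1a at 4.67 to 15.8 and Pax6 at 10.7 to 24.3 normalised counts over all libraries. Of 16 tested processing and granule genes, Cplx2 had -0.55 for ezetimibe in wild types (limma adjusted p = 0.698). The carboxypeptidase Cpe had -0.47 for ezetimibe in knockouts (limma adjusted p = 0.157), and the amidating enzyme Pam had 0.53 for genotype on the ezetimibe diet (limma adjusted p = 0.273). None of 8 tested genes of serotonin synthesis and other peptides had an unadjusted p under 0.05 by limma. Of 6 tested nutrient and bile acid sensors, the free fatty acid receptor Ffar2 had -0.73 and the lysophosphatidic acid receptor Lpar5 had 0.40 on the ezetimibe diet (limma adjusted p = 0.299 and 0.265). Of 9 peptide-degrading enzymes, Ace had 0.58 for ezetimibe in knockouts (limma adjusted p = 0.0752) and Enpep 0.46 (limma adjusted p = 0.155). Dpp4, which inactivates GLP-1, had 0.39 (limma adjusted p = 0.158). In ezetimibe-fed knockouts Ace averaged 33261.5 and Dpp4 31385.8 normalised counts, against 648.5 for Chga. The enterocyte list had a median of 0.26 for ezetimibe in knockouts, and the part of enterocytes in these enzyme values was not tested. The GLP-1 receptor gene Glp1r, 1 of 3 tested receptors, had 1.04 for ezetimibe in knockouts (limma adjusted p = 0.13). Glp1r too was low, at 6.33 to 28.0 normalised counts over all libraries.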

How the data were processed

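Total RNA of frozen distal jejunum was sequenced in 15 libraries, numbered as replicates in the labels, which do not say whether each came from its own mouse, so the p-values reflect only sample-to-sample spread. The submitters' processing notes name FastQC, STAR 2.6.0c, DESeq2 and the mm10 build; neither the counting tool nor its strand setting is stated there. The authors deposited a signal table of counts divided by DESeq2 size factors, and tables of log2 fold changes with adjusted p-values, per the file headers. Whole reads were recovered from the deposited signal (100% of values whole within 0.001), at 13855034 to 19307079 reads per library, and used in the count tests only. Intervals cover counting and sample error as fitted. A count of 3 reads was noted as the floor of each library, and values below it were kept as they stood.

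Genes with at least 10 normalised counts in at least 3 libraries (14299, all 10 hormone genes among them) were tested with limma 3.58.1 (mean-variance trend, log2 of value + 1, 1 fit over the 4 groups, two-sided, Benjamini-Hochberg over all genes, threshold 0.05). Fold changes on that scale understate the change of low genes. Alternatives used edgeR 4.0.16, DESeq2 1.42.0, limma-voom, the replicate number as a block, other pseudocounts (0.5 and 5), filters, scalings, sample sets and each library left out. The code was tested on simulated data. Correlations used 100000 permutations within groups. Levels per kilobase used GENCODE M21 exon unions. Genes named beside the 10 come from the list genes with the smallest p in the 4 group comparisons (up to 3 a list), the first 3 markers of other cells and the 3 most alike genes. Not every gene that qualified is named. The members and lists were chosen with earlier results of these data known.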

Additional observations from a re-analysis of the deposited data

Results flagged for a closer look

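One library stood apart from the others of its group. Gip in ezetimibe-fed wild type replicate 1 was 903 normalised counts, and its gap to the nearest of the other 3 libraries was 0.923 of the group's whole range. Of 30 groups of 4 libraries checked over the 10 genes, this was the 1 that passed the criterion, and chance passes about 1 in 20.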

How the results depend on the processing

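Of the counts of called members or pairs, those below moved. With the replicate number as a block limma called 2 members for ezetimibe in knockouts, Gcg (-0.75, adjusted p = 0.0162) and Tac1 (-1.14, adjusted p = 0.0311), and 1, Gcg, for the averaged genotype effect (-0.45, adjusted p = 0.0389) and for the averaged diet effect (-0.51, adjusted p = 0.0174). The deviations of same-numbered libraries from their group means had r of -0.242 to 0.331 over 21 pairs, 12 of them over 0.1. Differently numbered libraries were not set beside them, so these values cannot decide whether the numbers pair libraries. The main fit had no block because the labels do not say what same-numbered libraries share. DESeq2 called 1 member, Gcg, for the averaged genotype effect, and leaving out each library gave 0 to 1 there (1 without control-diet wild type replicate 1); without centring on group means 0 pairs of members were called. Calls among all genes moved by over 1.5 times under some settings. For genotype on the control diet the 53 became 17 with pseudocount 5, 12 with no filter, 5 with quantile normalisation, 3 with the compared groups alone, 231 with the replicate block, 12 with edgeR, 10 with limma-voom, 442 with DESeq2 and 25 with ezetimibe-fed knockout 3 and control-diet wild type 4 left out. For genotype on the ezetimibe diet the 1 became 2 with quantile normalisation, 3 with the compared groups alone, 6 with the replicate block and 86 with DESeq2. For ezetimibe in wild types the 31 became 54 with the replicate block and 94 with DESeq2. For ezetimibe in knockouts the 104 became 54 with no filter, 330 with the filter on a mean of 50, 16 with the compared groups alone, 1915 with the replicate block, 41 with limma-voom, 1155 with DESeq2 and 12 with ezetimibe-fed knockout 3 and control-diet wild type 4 left out. For the interaction the 0 became 5 with DESeq2. For the averaged genotype effect the 578 became 320 with no filter, 132 with quantile normalisation, 922 with the replicate block, 1220 with DESeq2 and 270 with ezetimibe-fed knockout 3 and control-diet wild type 4 left out. For the averaged diet effect the 354 became 1489 with the replicate block, 951 with DESeq2 and 108 with ezetimibe-fed knockout 3 and control-diet wild type 4 left out. With 1 library left out, the calls among all genes ran from 3 to 126 for genotype on the control diet and from 5 to 456 for ezetimibe in knockouts. They ran from 33 to 1202 for the averaged genotype effect and from 149 to 575 for the averaged diet effect. The lowest came without control-diet knockout replicate 1 in the first 3 of these and without control-diet wild type replicate 2 in the last; the highest came without ezetimibe-fed knockout replicate 4 for ezetimibe in knockouts and without control-diet wild type replicate 1 in the other 3. For ezetimibe in wild types they ran from 17, without replicate 2 of the ezetimibe-fed wild types, to 34. A mean of at least 50 left Tac1 and Ghrl untested. Log2 fold changes near 0 changed sign, none of them past the threshold, and the cause was not tested. With quantile normalisation the log2 values that turned were Ghrl 0.060 for genotype on the control diet, Gip -0.0062 and Ghrl 0.13 for genotype on the ezetimibe diet, and Gip -0.052, Pyy 0.061 and Ghrl 0.095 for the averaged genotype effect. With the replicate block the log2 values that turned were Cck 0.033 for genotype on the control diet, and Cck -0.016 for the interaction. Without the pair of libraries farthest apart on principal component 1 (ezetimibe-fed knockout 3 and control-diet wild type 4) the log2 values that turned were Cck 0.077, Gip 0.0077 and Pyy -0.081 for genotype on the control diet, and Cck -0.0038 and Chga -0.0045 for the interaction. With TMM scaling the log2 values that turned were Cck -0.0097 and Gip -0.0075 for the averaged genotype effect. With edgeR the log2 values that turned were Cck -0.012 and Gip -0.0022 for the averaged genotype effect. With limma-voom the log2 values that turned were Cck -0.0065 and Gip -0.0056 for the averaged genotype effect. With DESeq2 the log2 values that turned were Cck -0.0036 for the averaged genotype effect. Leaving out 1 library at a time turned further values, given with their range. For genotype on the control diet these were Cck (-0.13 to 0.077), Sst (-0.018 to 0.25), Tac1 (-0.29 to 0.23), Gip (-0.13 to 0.035), Ghrl (-0.48 to 0.12) and Pyy (-0.081 to 0.27). For genotype on the ezetimibe diet these were Gip (-0.042 to 0.17), Ghrl (-0.17 to 0.17) and Cck (-0.047 to 0.079). For ezetimibe in wild types these were Sct (-0.13 to 0.076), Nts (-0.12 to 0.039), Tac1 (-0.13 to 0.24), Ghrl (-0.15 to 0.19), Pyy (-0.20 to 0.15) and Gip (-0.050 to 0.088). For ezetimibe in knockouts these were Cck (-0.18 to 0.0031) and Ghrl (-0.11 to 0.50). For the interaction these were Cck (-0.060 to 0.15), Ghrl (-0.14 to 0.46) and Sct (-0.18 to 0.031). For the averaged genotype effect these were Gip (-0.046 to 0.059), Nts (-0.012 to 0.11), Cck (-0.056 to 0.047), Ghrl (-0.25 to 0.052) and Pyy (-0.096 to 0.079). For the averaged diet effect these were Ghrl (-0.035 to 0.27). Depth limits Ghrl and Tac1 most, with as few as 10 and 14 reads in a library.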
